A study of Mus musculus with 6 samples.

Results

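Unfolded protein response (UPR) sensors and transcription factors were examined in mouse liver 6 h after treatment with FGF19, a gut hormone of humans whose mouse counterpart is FGF15. The members were the 10 genes Ern1, Xbp1, Eif2ak3, Atf4, Ddit3, Trib3, Ppp1r15a, Atf6, Atf6b and Creb3l3, taken by gene symbol from the deposited count files, and they are 10 of the 23284 genes listed there. All 10 passed the filter on low counts that left 12559 genes for testing. The IRE1 arm held 2 of them, the PERK arm 5 and the ATF6 arm 2, and Creb3l3 stood alone as the related factor CREBH.

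The RNA came from livers of C57BL/6 mice aged 8 weeks, with no engineered allele named in the labels, after an overnight fast. A group of 3 mice received vehicle (Vehicle) and another group of 3 received FGF19 at 1 mg/kg (FGF19), and both remained without food for the 6 h of treatment. Each mouse gave 1 RNA-seq library of paired-end reads. The deposited values were raw read counts per gene, and the total count was between 18994654 and 22920056 per library.

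The UPR is the response of cells to unfolded proteins in the endoplasmic reticulum (ER). Its sensors sit in the ER membrane and signal along parallel arms. IRE1, encoded by Ern1, cuts Xbp1 mRNA so that it encodes an active transcription factor. PERK, encoded by Eif2ak3, phosphorylates the initiation factor eIF2α, which slows translation but favours translation of ATF4. ATF6 and its paralogue ATF6B are themselves transcription factors that are released from the membrane by proteases of the Golgi. In liver, an organ that secretes most plasma proteins, CREBH is cut in the same manner and is known for its role in acute phase and lipid genes. Much of this signalling runs through splicing, phosphorylation and cleavage, which counts of reads per gene do not measure.

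The site at which IRE1 cuts Xbp1 mRNA is shown because the deposited counts cannot tell its uncut and cut forms apart. The site lies at chr11:5424252-5424337 of build mm9, on the + strand, in coding sequence of exon 4 of the 5 exons that the files list for Xbp1. Capitals mark the 26 bases between the cuts, which fall after position 3 of 7-base loops with the letters CCGCAGC and CTGCAGC. The sequence was read 5′ to 3′ from the mm9 genome.
Xbp1 site: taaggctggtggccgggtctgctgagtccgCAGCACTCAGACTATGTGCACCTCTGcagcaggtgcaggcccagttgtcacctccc
Removal of the capitals shifts the reading frame. GENCODE M1 lists a transcript without 26 bases here in 1 of 6 Xbp1 transcripts, with a gap that starts 3 bases further downstream and leaves an identical spliced exon. The annotation used for counting takes exon 4 whole, from 5424242 to 5424387, so that reads from either form add to the same Xbp1 count. These exact 7-base letters at this distance were found in the coding sequence of 2 of 22594 genes, Xbp1 and Wdr17. The looser loop pattern CNGCNGN, taken at both cuts at the same distance, was found in 2053 genes (9.09%), among them the members Xbp1, Trib3 and Atf6b. A match says nothing of whether IRE1 cuts there.

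Levels were compared between the 10 genes per length, as RPKM, reads scaled to exon length and library size. Creb3l3 had the highest level in the Vehicle livers, 172 ± 14.8 RPKM (SD, n = 3 in each group for this and all following values), followed by Xbp1 with 105 ± 6.79 RPKM and Atf4 with 62.3 ± 6.98 RPKM. The Vehicle ranges of these 3 genes did not overlap each other or those of the other members. Atf6 was at 9.68 ± 0.618, Atf6b at 9.30 ± 0.834, Ppp1r15a at 8.62 ± 0.319, Trib3 at 7.02 ± 2.84 and Ddit3 at 6.31 ± 0.340 RPKM. Neighbours in this order from Atf6 to Ddit3 overlapped in their Vehicle ranges. The sensors Ern1, at 5.18 ± 0.698 RPKM, and Eif2ak3, at 3.28 ± 0.386 RPKM, had the lowest means. Eif2ak3 lay below all other members without overlap, and Ern1 below all those above it in the order except Trib3, whose Vehicle range of 3.74 to 8.76 RPKM spans that of Ern1. In the FGF19 livers the order was led by the same 3 genes, with Creb3l3 at 212 ± 16.3, Xbp1 at 143 ± 6.22 and Atf4 at 71.8 ± 2.98 RPKM. In whole liver RNA, fewer cells of a type and less RNA per cell cannot be told apart.

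FGF19 and Vehicle livers were then compared with edgeR's quasi-likelihood test over all 12559 genes, with Benjamini-Hochberg adjustment, to ask which arm moved at the level of mRNA. Of the 10 genes, Xbp1 and Atf6b were higher at an adjusted p under 0.05 and 0 were lower, as with DESeq2 and limma-voom, whereas over all genes tested 4.56% were called higher and 2.84% lower. At an unadjusted p under 0.05, 4 were higher and 0 lower, beside 11.6% and 11.3% of all genes. At p under 0.01 without adjustment, the same 2 genes were higher and 0 were lower, beside 6.20% and 4.98% of all genes. The fitted log2 fold change was above 0 in 8 of 10 genes with a median of 0.29, where the median over all genes tested was -0.00076. In 4 of 10 genes, Xbp1, Ddit3, Atf6b and Creb3l3, every FGF19 library lay above every Vehicle library, and in 0 of 10 below, beside 14.5% and 13.8% of all genes. The member counts are small, and they are read only as a description against these background shares.

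**Figure D1:**
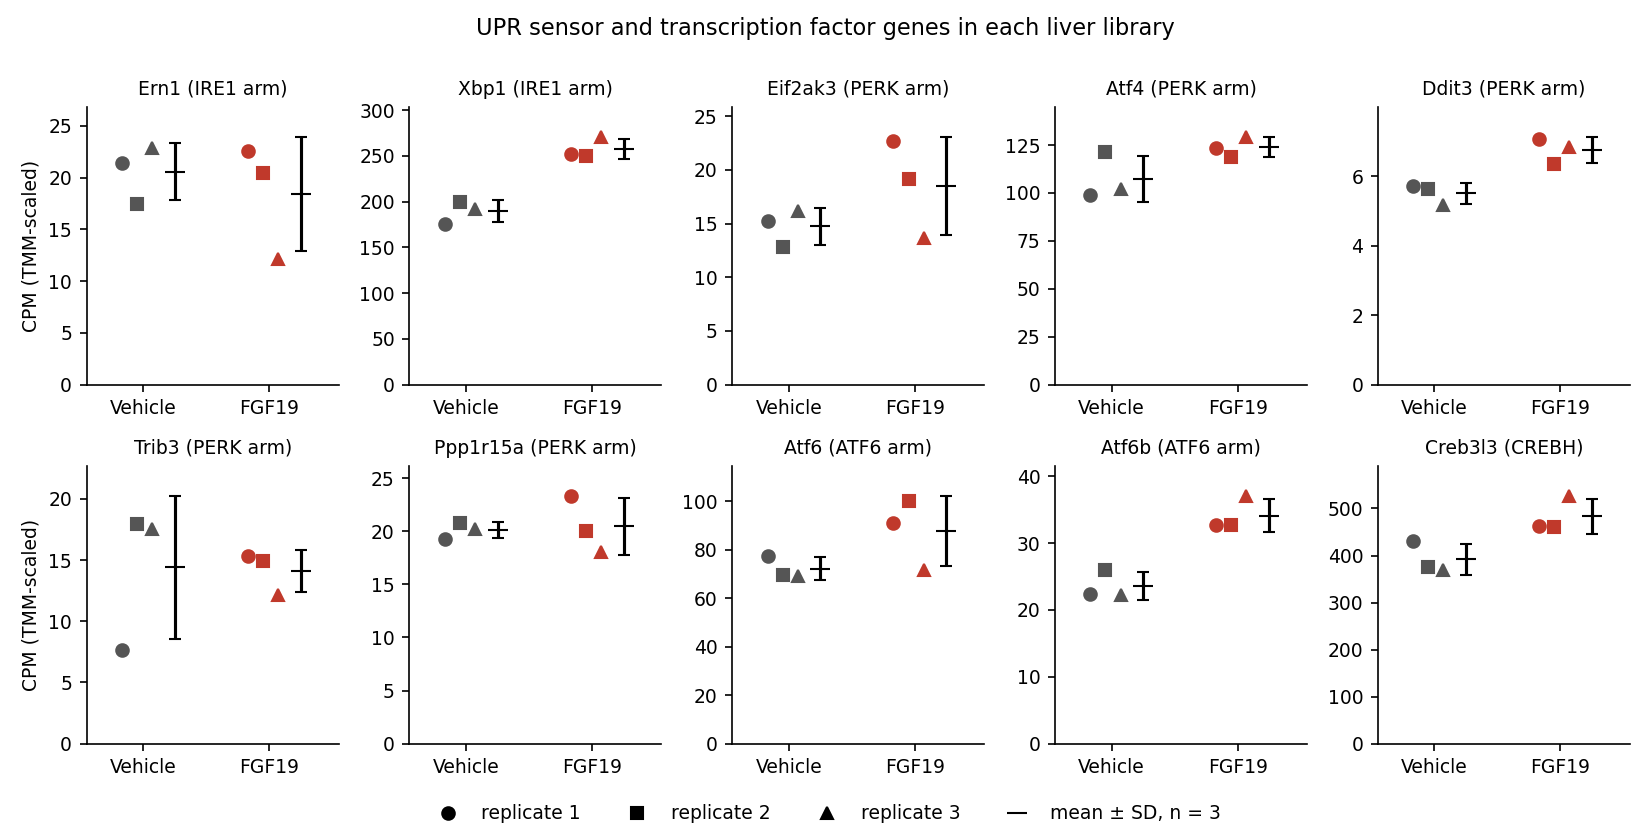
Level of each of the 10 UPR genes in each liver library, as CPM (reads scaled to library size with TMM factors, linear axis from 0), with Vehicle in grey and FGF19 in red, 1 point per mouse, and the mean ± SD of 3 mice as a bar. Xbp1, Ddit3, Atf6b and Creb3l3 show no overlap between the groups, and FGF19 replicate 3 is the lowest FGF19 library for Ern1, Eif2ak3, Trib3, Ppp1r15a and Atf6.

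In the IRE1 arm, the target transcript Xbp1 rose whereas the sensor Ern1 did not pass the test. Xbp1 encodes a transcription factor for ER folding, degradation and secretion genes and lies at chr11:5420970-5425875 (mm9, + strand). Its level, as CPM (reads scaled to library size), was 176, 199.9 and 192 in Vehicle replicates 1, 2 and 3 and 253, 250.1 and 271 in FGF19 replicates 1, 2 and 3. All FGF19 libraries lay above all Vehicle libraries, and the gap between the groups was wider than the spread within either. The fold was 1.36 (log2 fold change 0.44, SE 0.0866, 95% interval 0.25 to 0.64, adjusted p = 0.0155 by edgeR).

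Ern1, which encodes the kinase and RNase IRE1α, lies at chr11:106258934-106349110 (mm9, - strand). Its level was 21.4, 17.5 and 22.8 CPM in the Vehicle livers and 22.6, 20.4 and 12.1 CPM in the FGF19 livers. The groups overlapped, and FGF19 replicate 3 was far below all other libraries. The log2 fold change was -0.16 (SE 0.209, 95% interval -0.63 to 0.31, adjusted p = 0.700 by edgeR), and without FGF19 replicate 3 it was 0.067. Its paralogue Ern2, known from gut epithelium, had at most 1 read in any library and was not tested.

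In the PERK arm, 0 of 5 genes passed edgeR's test in either direction, and 0 had an unadjusted p under 0.05. Over all genes tested, those shares were 4.56% higher and 2.84% lower, and 11.6% and 11.3%, so that a count of 0 among 5 genes does not set the PERK arm apart. Eif2ak3 encodes PERK and lies at chr6:70794521-70855234 (mm9, + strand). It was at 15.2, 12.8 and 16.2 CPM in the Vehicle livers and at 22.7, 19.2 and 13.6 CPM in the FGF19 livers. FGF19 replicates 1 and 2 exceeded every Vehicle library, but FGF19 replicate 3 fell among them. The log2 fold change was 0.32 (SE 0.180, adjusted p = 0.324 by edgeR), and without FGF19 replicate 3 it was 0.51 with an adjusted p of 0.0351.

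Atf4, the transcription factor whose translation PERK signalling favours, lies at chr15:80085614-80087971 (mm9, + strand). It was at 98.8, 121 and 102 CPM in the Vehicle livers and at 123, 119 and 129 CPM in the FGF19 livers. Vehicle replicate 2 reached the FGF19 range and the other Vehicle libraries did not. The log2 fold change of Atf4 was 0.21 (SE 0.0983, 95% interval -0.015 to 0.43, adjusted p = 0.251 by edgeR). Ddit3, which encodes the pro-apoptotic factor CHOP, lies at chr10:126727849-126733344 (mm9, + strand) and was among the less abundant members. Its level was 5.72, 5.62 and 5.16 CPM in the Vehicle livers and 7.07, 6.34 and 6.84 CPM in the FGF19 livers, without overlap. Its log2 fold change of 0.30 (SE 0.135, adjusted p = 0.231 by edgeR) did not pass the test. The exons of Ddit3 overlap those of Mars by 136 bases, and counting ignored strand, so that this value is uncertain.

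The feedback genes of the PERK arm had log2 fold changes near 0. Trib3, a pseudokinase that restrains ATF4 and CHOP, lies at chr2:152163161-152169796 (mm9, - strand). It was at 7.67, 18.0 and 17.6 CPM in the Vehicle livers and at 15.3, 14.9 and 12.1 CPM in the FGF19 livers. Vehicle replicate 1 was far below the other 5 libraries, and the SE of the log2 fold change was the largest among the 10 genes (-0.026, SE 0.272, 95% interval -0.64 to 0.59, adjusted p = 0.970 by edgeR). Ppp1r15a encodes GADD34, the subunit that brings phosphatase to eIF2α, and lies at chr7:52778288-52781638 (mm9, - strand). It was at 19.3, 20.8 and 20.2 CPM in the Vehicle livers and at 23.3, 19.99 and 18.1 CPM in the FGF19 livers. The FGF19 libraries spanned the whole Vehicle range, and the log2 fold change was 0.026 (SE 0.115, 95% interval -0.23 to 0.28, adjusted p = 0.922 by edgeR). The interval of Ppp1r15a was narrow enough to exclude a rise or fall of the size fitted for Xbp1, while that of Trib3 was not.

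In the ATF6 arm, Atf6b rose and Atf6 did not pass the test. Atf6b lies at chr17:34784125-34792017 (mm9, + strand) and encodes the paralogue of ATF6, known as a weaker activator. Its level was 22.4, 25.97 and 22.2 CPM in the Vehicle livers and 32.7, 32.7 and 37.0 CPM in the FGF19 livers. All FGF19 libraries lay above all Vehicle libraries. The fold of 1.45 (log2 fold change 0.54, SE 0.103, 95% interval 0.31 to 0.77, adjusted p = 0.0148 by edgeR) was the largest among the 10 genes.

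Atf6, at chr1:172634588-172797902 (mm9, - strand), was at 77.6, 69.8 and 69.4 CPM in the Vehicle livers and at 91.1, 100.2 and 71.8 CPM in the FGF19 livers. FGF19 replicate 3 was again the library that fell back into the Vehicle range. The log2 fold change was 0.28 (SE 0.124, 95% interval 0.0017 to 0.56, adjusted p = 0.215 by edgeR), and without FGF19 replicate 3 it was 0.41 with an adjusted p of 0.0161. Creb3l3, at chr10:80547078-80561617 (mm9, - strand), encodes CREBH and is the most liver-restricted of these factors. It was at 430.4, 376 and 369 CPM in the Vehicle livers and at 462, 461 and 526 CPM in the FGF19 livers, without overlap. Its log2 fold change of 0.30 (SE 0.0989, 95% interval 0.081 to 0.53, adjusted p = 0.102 by edgeR) did not pass after adjustment over all genes.

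**Figure D2:**
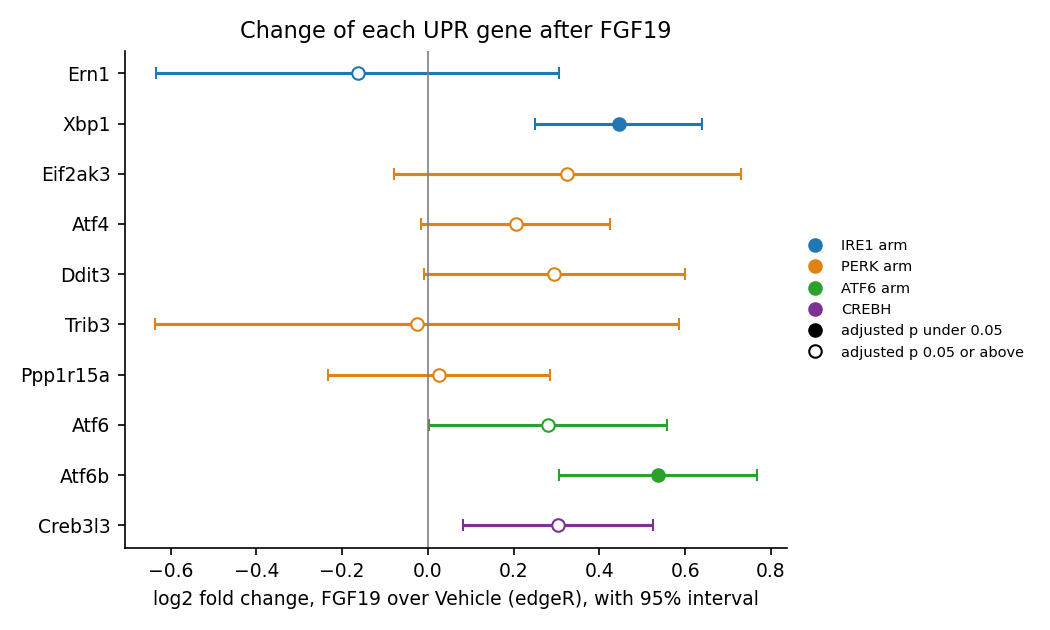
log2 fold change of each of the 10 genes, FGF19 over Vehicle (n = 3 each), with its 95% interval from edgeR's quasi-likelihood fit, coloured by arm, and filled where the adjusted p was under 0.05. Xbp1 at 0.44 and Atf6b at 0.54 are the filled points, the intervals of Creb3l3 and, narrowly, Atf6 also lie above 0, and those of Trib3 and Ern1 are the widest.

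The fold changes of Xbp1 and Atf6b moved little between the 14 alternatives, from 0.39 to 0.48 and from 0.48 to 0.61 on the log2 scale, but both calls were lost in some of them. Without Vehicle replicate 1 neither was called, with adjusted p of 0.0602 for Xbp1 and 0.0599 for Atf6b, and without Vehicle replicate 3 the values were 0.0703 and 0.0779. Xbp1 also lost its call when FGF19 replicate 1 (adjusted p = 0.0580) or FGF19 replicate 2 (adjusted p = 0.05001) was left out, where its log2 fold change was 0.46 and 0.47, and Atf6b kept its call. FGF19 replicate 3 was lower than the other FGF19 libraries for the members with the longest exons, and for some shorter ones. Its log2 difference from the other FGF19 libraries was -0.80 for Ern1, -0.60 for Eif2ak3 and -0.41 for Atf6, whose exons sum to between 3976 and 7463 bases. Among the members with shorter exons, the difference was -0.31 for Trib3 and -0.25 for Ppp1r15a, and 0.028 for Ddit3, 0.093 for Atf4, 0.11 for Xbp1, 0.18 for Atf6b and 0.19 for Creb3l3. Over all genes tested, the median difference of this library from the others of its group was 0.15 for the 5335 genes of at most 2530 exon bases and -0.19 for the 3742 genes of at least 3976, against -0.078 to 0.11 in the other 5 libraries. With that trend with exon length removed from every library, an alternative added after the data had been seen, the called genes were still Xbp1 (log2 fold change 0.46, adjusted p = 0.00547 by edgeR) and Atf6b (0.52, adjusted p = 0.00915), and Atf6 was at 0.25 with an adjusted p of 0.0992.

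To set the arms against each other inside each library, log2 ratios of CPM were formed between the sensors and between the transcription factors, 1 for each pair of arms, and 6 ratios were compared. With 3 against 3 mice, the two-sided exact permutation test cannot give a p below 0.1. The ratio of Ern1 to Eif2ak3 was 0.48 ± 0.027 in the Vehicle livers and -0.027 ± 0.13 in the FGF19 livers, a difference of -0.51 (exact permutation p = 0.1, 0.2 after adjustment over the 6 ratios). Every FGF19 library lay below every Vehicle library in this ratio, and omitting any single library gave differences between -0.57 and -0.43. Both genes are among the longer members, and the ratio was -0.0059, 0.094 and -0.17 in FGF19 replicates 1, 2 and 3, where the lowest Vehicle library was at 0.45. The ratio of Ern1 to Atf6 was also lower in each FGF19 library, with means of -1.82 ± 0.20 and -2.29 ± 0.28 (difference -0.47, exact permutation p = 0.1, adjusted 0.2), and that of Eif2ak3 to Atf6 overlapped, with a difference of 0.034.

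Among the transcription factors, the ratio of Xbp1 to Atf4 was 0.82 ± 0.095 in the Vehicle livers and 1.06 ± 0.020 in the FGF19 livers, a difference of 0.24 without overlap (exact permutation p = 0.1, adjusted 0.2). The ratios of Xbp1 to Atf6 and of Atf4 to Atf6 overlapped between the groups, with differences of 0.18 and -0.058 (exact permutation p = 0.5 and 0.8). The former was 1.47, 1.32 and 1.91 in FGF19 replicates 1, 2 and 3 beside 1.18 to 1.52 in the Vehicle livers. Only FGF19 replicate 3 exceeded the Vehicle range. Since this exact test cannot pass 0.05 with 3 against 3 libraries, its p leaves undecided whether the arms differed in the response of their members, and the sizes and ranges of the ratios stand as a description.

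**Figure D3:**
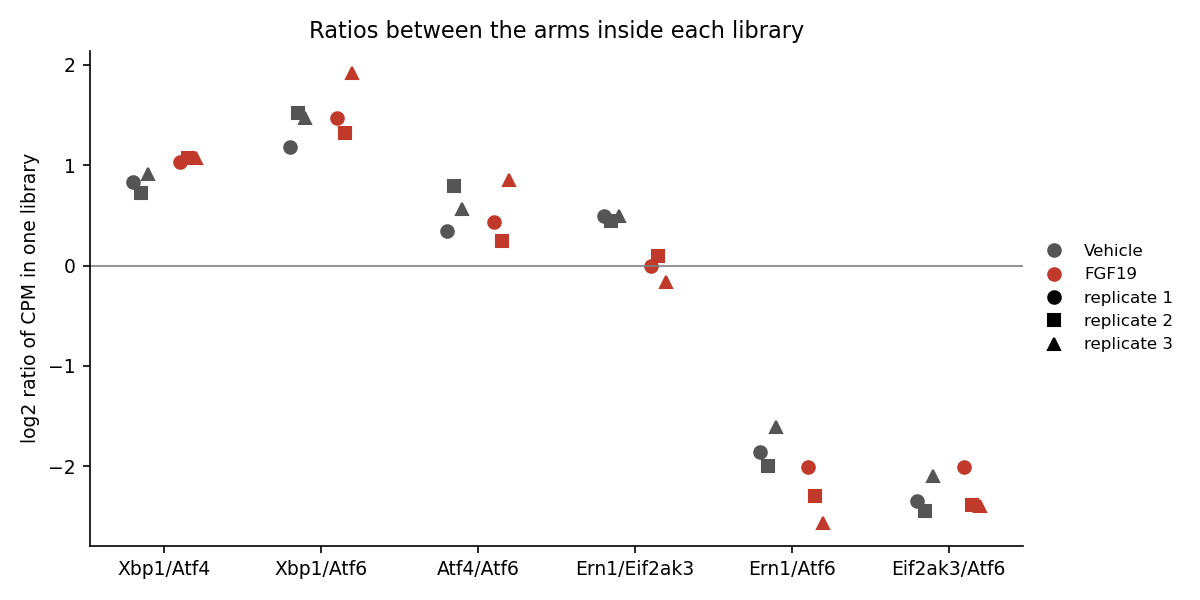
log2 ratio of the CPM of 2 member genes inside each library, 1 point per mouse, for the 3 pairs of transcription factors and the 3 pairs of sensors. The ratios Ern1/Eif2ak3 and Ern1/Atf6 are lower in every FGF19 library and Xbp1/Atf4 is higher in every FGF19 library, while the other 3 overlap.

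Known targets of each arm were examined, from lists drawn up from general knowledge of the pathway with earlier results of these data known. Their counts are therefore a description and no independent evidence. The lists are not exclusive to an arm, as ATF6 and XBP1 share a binding element (below) that was found in genes of both their lists. The medians of these 2 lists therefore do not compare the arms. In the list of IRE1 and XBP1 target genes, 13 of 15 rose and 0 fell, beside 4.56% of all genes tested higher and 2.84% lower. Their median log2 fold change was 0.72 beside a median of -0.00076 over all genes tested. Pdia6, a protein disulfide isomerase, was at 158, 173 and 138 CPM in the Vehicle livers and at 402, 365 and 325 CPM in the FGF19 livers (log2 fold change 1.22, adjusted p = 0.000384 by edgeR), and 100 bases of its exons overlap Atp6v1c2. Dnajb11, an ER co-chaperone, rose by 1.142, Ero1lb, an ER oxidase, by 1.13, and Sec24d, a coat protein of vesicles that leave the ER, by 1.04 on the log2 scale (adjusted p = 0.000216, 0.01005 and 0.00771 by edgeR). Ero1lb was at 42.4, 53.3 and 44.0 CPM in the Vehicle livers and at 118, 119 and 68.0 CPM in the FGF19 livers, and without Vehicle replicate 3 its adjusted p was 0.0587. Sec24d was at 74.2, 69.9 and 64.2 CPM against 157, 171 and 101 CPM. FGF19 replicate 3 was the lowest FGF19 library for these genes and for the list, with a median log2 level of 0.55 above the Vehicle mean against 0.86 in each of the other 2. Dnajb9, at 0.69 with an adjusted p of 0.0694, and Fkbp14, at -0.027, did not pass. Without Vehicle replicate 3, 8 of the 15 were called, and the higher calls over all genes fell from 573 to 236.

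In the list of ATF6 target genes, 11 of 12 rose and 0 fell (all genes: 4.56% and 2.84%), with a median log2 fold change of 1.53. Derl3, which acts in the removal of misfolded proteins from the ER, was at 1.33, 2.97 and 0.943 CPM in the Vehicle livers and at 54.7, 35.4 and 26.7 CPM in the FGF19 livers. This was the largest change in the lists (log2 fold change 4.49, SE 0.381, adjusted p = 0.000238 by edgeR), and each FGF19 library was far above each Vehicle library. Sdf2l1, a component of an ER chaperone complex, rose by 2.74, Creld2 by 2.55 and Manf, a secreted ER stress protein, by 1.84 on the log2 scale, with adjusted p of 0.000628, 0.000521 and 0.000741 by edgeR. Hspa5 encodes BiP, the chaperone that holds the sensors inactive while it is bound to them. It was at 682, 734 and 579.9 CPM in the Vehicle livers and at 2352, 2142 and 1410 CPM in the FGF19 livers (log2 fold change 1.56, adjusted p = 0.00125 by edgeR). Herpud1 was the member of this list that did not pass (0.16, adjusted p = 0.558). FGF19 replicate 3 was the lowest FGF19 library for Derl3 and Hspa5, though well above the Vehicle livers.

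ATF6 and XBP1 are known to bind the ER stress response element (ERSE), with the letters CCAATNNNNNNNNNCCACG on either strand. The 250 bases before the start site, from RefSeq promoters of build GRCm38.p6, were searched for it, and 37 of 32851 such windows (0.113%) held it. Of the 12 ATF6 target genes, 10 were matched to a window, and 6 of these held an ERSE, as did 3 of the 14 matched IRE1 and XBP1 target genes. The window matched to Spcs3 lies on chrX and may belong to another gene, so that Spcs3 itself may not have been searched. The genes are known targets partly because of such elements, so that these counts are a description. The elements of 4 genes that rose are printed to show the shared ends, 5′ to 3′ in the direction of the gene, in capitals throughout since all letters belong to the match, and those of Creld2 and Derl3 match on the opposite strand.
Hspa5: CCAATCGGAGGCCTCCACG
Syvn1: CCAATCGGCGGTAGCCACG
Creld2: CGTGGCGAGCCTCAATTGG
Derl3: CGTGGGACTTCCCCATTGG
They lie at chr2:34772025-34772043, chr19:6046532-6046550, chr15:88819520-88819538 and chr10:75893242-75893260, all on genes of the + strand.

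Of the 10 members, 9 were matched to a RefSeq window (Atf6 was not), and 0 held an ERSE. The shorter CCACG, which also ends every ERSE and is contained in the UPRE on the other strand, was found before Ern1, Atf4 and Creb3l3, and in 28.3% of all windows. The UPRE (TGACGTGG, in 0.563% of windows) and the ATF4 element CARE (TGATGNAAT, in 0.816%) were found before 0 of 9 members, and the CRE (TGACGTCA, in 1.55%) before Ppp1r15a, from position -12 to -5. All motifs were searched on both strands. The windows before the members that rose are given below in lower case, since no searched motif lies in them, 5′ to 3′ in the direction of the gene. That of Xbp1 is chr11:5520391-5520640 (+ strand) and that of Atf6b is chr17:34646896-34647145 (+ strand) of GRCm38.p6.
Xbp1 promoter: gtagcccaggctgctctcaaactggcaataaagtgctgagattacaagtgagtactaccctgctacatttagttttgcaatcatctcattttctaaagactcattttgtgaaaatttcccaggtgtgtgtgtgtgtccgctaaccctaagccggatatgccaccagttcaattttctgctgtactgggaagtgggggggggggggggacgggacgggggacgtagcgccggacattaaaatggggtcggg
Atf6b promoter: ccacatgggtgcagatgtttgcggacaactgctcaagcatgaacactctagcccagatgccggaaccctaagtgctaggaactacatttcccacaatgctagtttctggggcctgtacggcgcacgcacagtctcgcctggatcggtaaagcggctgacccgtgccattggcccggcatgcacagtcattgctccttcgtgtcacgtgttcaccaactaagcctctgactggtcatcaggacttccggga
Only these letters and this window were searched.

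The PERK and ATF4 target genes moved in both directions. Of 18 listed, 16 were tested (Slc7a11 and Stc2 were too low), of which 6 rose, 2 fell and 8 did not pass (all genes: 4.56% higher and 2.84% lower), with a median log2 fold change of 0.26. Mthfd2, an enzyme of mitochondrial folate metabolism, was at 0.667, 0.530 and 0.397 CPM in the Vehicle livers and at 1.95, 2.30 and 1.90 CPM in the FGF19 livers (log2 fold change 1.93, adjusted p = 0.00394 by edgeR). Its counts were 14, 10 and 8 against 42, 50 and 42, and 2 of 3 Vehicle libraries reached the 0.476 CPM of the low-count filter, so that it was tested only through the FGF19 group and its call is no support for the list. The stress-induced cofactor Nupr1 rose by 1.58, Psat1, an enzyme of serine synthesis, by 1.49, and the hormone gene Fgf21 by 1.18 on the log2 scale, with adjusted p of 0.0164, 0.0270 and 0.0361 by edgeR. Mthfd2, Nupr1 and Psat1 were each below 3 CPM in all 6 libraries, and Psat1 and Fgf21 each lost the call in 5 of the 6 fits that left out a library. Nupr1 lost it without Vehicle replicate 1 (adjusted p = 0.0638) or 3 (0.0752), and Fgf21 also with limma-voom (0.0732) and with no TMM scaling (0.0525). All 3 kept their direction throughout. The genes that fell were Vldlr, a lipoprotein receptor (-0.99, adjusted p = 0.0141), and Shmt2, a mitochondrial serine enzyme (-0.32, adjusted p = 0.0424). The count of 6 depends on single libraries. It was 1 without Vehicle replicate 1 or Vehicle replicate 3, 2 without FGF19 replicate 2, and 3 without Vehicle replicate 2 or FGF19 replicate 1. In these fits the higher calls over all genes also fell, from 573 to between 236 and 398. The count of 2 was 0 without Vehicle replicate 3 or FGF19 replicate 2, where the lower calls over all genes fell from 357 to 107 and 91. The elements CARE were found before 4 of the 18 genes, Nupr1, Fgf21, Aars and Gars.

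**Figure D4:**
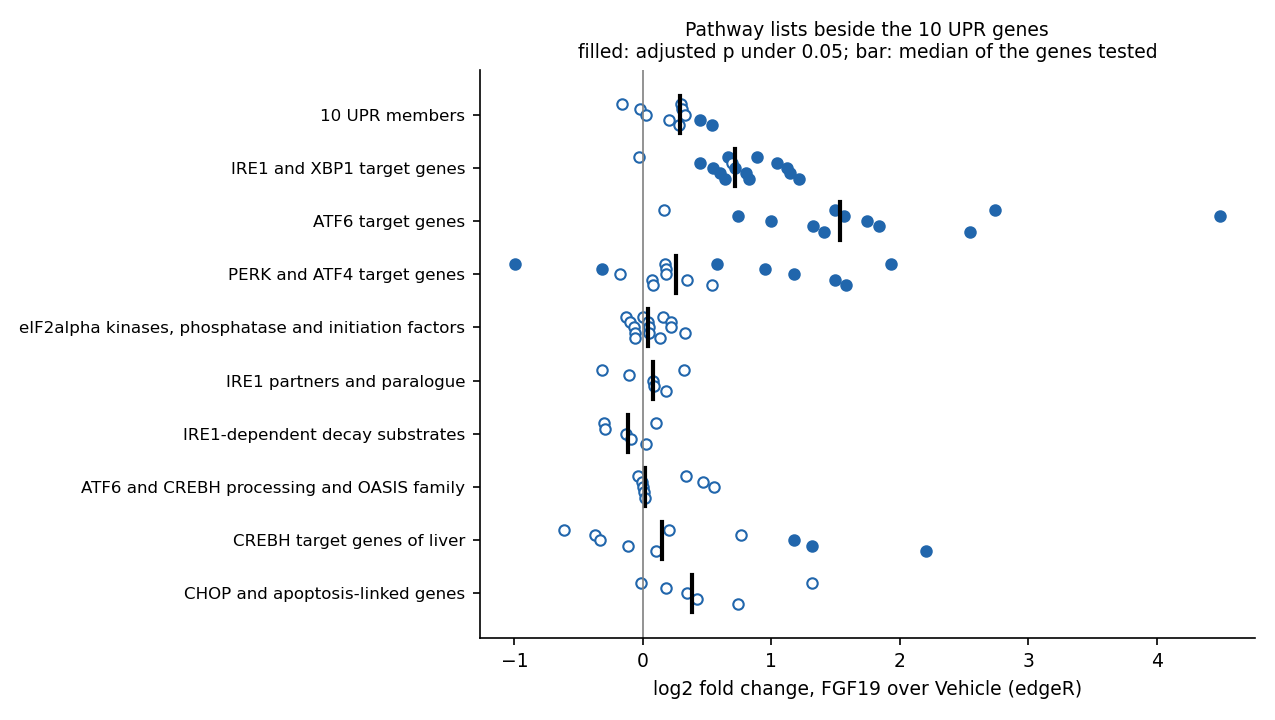
log2 fold change of each tested gene, FGF19 over Vehicle, for the 10 members and 9 lists of UPR genes, 1 point per gene, filled where the adjusted p by edgeR was under 0.05, with a bar at the median of each list. The members' median of 0.29 lies below the medians of the IRE1 and XBP1 target genes (0.72) and of the ATF6 target genes (1.53), and the PERK and ATF4 target genes (0.26) spread to both sides of 0.

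Genes that act beside the sensors were examined in 5 further lists, in which 0 genes passed edgeR's quasi-likelihood test. Over all genes tested, 4.56% were called higher and 2.84% lower, and at an unadjusted p under 0.05 11.6% and 11.3%, so that counts of 0 in lists of 6 to 14 genes do not set these lists apart. DESeq2 and limma-voom also called 0 in these lists, and the likelihood ratio test called 1 in each of 2 of them. Of the 14 eIF2α kinases, phosphatase and initiation factor genes, 0 rose and 0 fell, with a median of 0.043, and 2 were higher at an unadjusted p under 0.05. These include the other kinases of eIF2α, Eif2ak1 (-0.060, adjusted p = 0.719), Eif2ak2 (0.047, adjusted p = 0.870) and Eif2ak4 (0.14, adjusted p = 0.723), and Ppp1r15b, the paralogue of Ppp1r15a (0.041, adjusted p = 0.867). Among the IRE1 partners, 0 of 6 tested genes passed, and among substrates of IRE1-dependent mRNA decay, a second activity of the IRE1 RNase, 0 of 6 passed, with medians of 0.082 and -0.11, and at an unadjusted p under 0.05 there was 1 lower partner and 0 substrates. The proteases that cut ATF6 and CREBH, Mbtps1 and Mbtps2, were at 0.015 and 0.011 (adjusted p = 0.937 and 0.982). In their list with the related OASIS factors, 0 of 8 tested genes passed, 2 were higher at an unadjusted p under 0.05, and the nearest was Creb3 (0.33, adjusted p = 0.0593). Of the CHOP and apoptosis-linked genes, 0 of 6 passed and 2 were higher at an unadjusted p under 0.05. The median of 0.38 includes Pmaip1 (0.74) and Tnfrsf10b (1.32), which met the low-count filter only through the FGF19 group.

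Among 10 CREBH target genes of liver, 3 rose and 0 fell (all genes: 4.56% and 2.84%), with a median of 0.15. Apcs, which encodes serum amyloid P, was at 41.5, 32.0 and 39.6 CPM in the Vehicle livers and at 177, 157 and 186 CPM in the FGF19 livers (log2 fold change 2.20, adjusted p = 1.4e-05 by edgeR). Crp, which encodes C-reactive protein, rose by 1.31 on the log2 scale (adjusted p = 0.000266), and the third was Fgf21. The other 7 genes of the list did not pass. They were Cidec, a lipid droplet gene (0.77, adjusted p = 0.115), Apoc2 (0.20), Pck1 (0.10), G6pc (-0.12), Apoa5 (-0.34, adjusted p = 0.0811), Apoa4 (-0.38) and Hamp, the gene of an iron hormone that is also known from the acute phase (-0.62, adjusted p = 0.195).

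For each member, the gene whose pattern over the 6 libraries was most like it was sought among genes of at least 10 CPM, by the root mean square difference of log2 CPM centred on each gene's mean. The closest were Ogfr for Xbp1 (0.0420), Krtcap2 for Atf6b (0.0172), Eprs for Atf6 (0.0187), Atrx for Ern1 (0.0503), Xpo1 for Eif2ak3 (0.0438), Gfra1 for Atf4 (0.0324), Mrps27 for Ddit3 (0.0348), Cdc40 for Ppp1r15a (0.0281) and Cltb for Creb3l3 (0.0252). Trib3 had no gene as near, with a difference of 0.135 to 6430527G18Rik. No 2 members had the same nearest gene.

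The labelled tissue was checked by markers. Over all genes tested, edgeR called 4.56% higher and 2.84% lower, and 11.6% and 11.3% were so at an unadjusted p under 0.05. Counts of 0 in lists this small do not set them apart from these shares. The summed level of 6 hepatocyte markers was 92019 to 97116 CPM in the Vehicle livers and 84231 to 96294 CPM in the FGF19 livers, and 0 of 6 were called by edgeR, DESeq2 or limma-voom, with 2 lower at an unadjusted p under 0.05. Of the 6 Kupffer cell and macrophage markers, 2 rose, Marco (2.29) and Cd68 (0.66). The other 4 did not pass, with Emr1 at 0.36, Cd5l at -0.22, Clec4f at -0.29 and Vsig4 at -0.54 (adjusted p = 0.0755 by edgeR). Each FGF19 library lay below each Vehicle library for Vsig4 and above each for Marco, Cd68 and Emr1, beside 13.8% and 14.5% of all genes. At an unadjusted p under 0.05, 3 of the 6 were higher and 1 was lower. The sum of the 6 was 149 to 187 CPM in the Vehicle livers and 155 to 182 CPM in the FGF19 livers. The neutrophil markers summed to 0.620 to 1.64 and 3.49 to 4.82 CPM, and only S100a9 had enough reads to be tested (2.16, adjusted p = 0.0292 by edgeR). Its counts were 5, 4 and 21 in the Vehicle livers and 36, 50 and 61 in the FGF19 livers, so that it passed the filter through the FGF19 group. Markers of B and plasma cells, which use Xbp1 heavily, summed to 3.96 to 7.50 and 2.26 to 4.64 CPM. Of 34 markers of B and plasma cells, T cells, endothelium, stellate cells, cholangiocytes, pancreatic acinar cells and red blood cells, 23 were tested and edgeR's quasi-likelihood test called 0. At an unadjusted p under 0.05, 1 was higher and 4 were lower, and 2 were called lower by DESeq2, 4 by the likelihood ratio test and 0 by limma-voom. Only 2 of 5 T cell, 1 of 6 acinar and 1 of 3 red blood cell markers could be tested, and 3 acinar markers and the globin genes Hba-a1 and Hbb-b1 were at 0 in all libraries. Multi-mapped reads were left out of the counts, and the third red blood cell marker, Alas2, was at 43.6 to 78.6 CPM. The globin zeros are therefore not read as an absence of red blood cells. The part of the macrophage and neutrophil markers in the changes of Xbp1 and Atf6b was not tested.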

How the data were processed

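Liver RNA of 3 Vehicle and 3 FGF19 mice was analysed, grouped and numbered by the labels, with the dose and time of treatment from the study's methods. The deposited counts are raw reads per gene that the authors made with featureCounts 1.5.2 on an mm9 annotation, without strand, with mates counted separately and multi-mapped reads left out, per the file headers. The submitters' processing notes also name bcl2fastq 2.17.1.14, Trimmomatic 0.36, FastQC 0.11.5 and STAR 2.5.3a. The authors' own table of fold changes and p-values was not used.

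Tests were run on the counts in edgeR 4.0.16 (R 4.3.3) with filterByExpr, TMM scaling (factors 0.964 to 1.03), and the quasi-likelihood test without covariates, on all 6 libraries, with Benjamini-Hochberg adjustment over the 12559 genes tested. The common dispersion was 0.0163. The study states edgeR and p under 0.01 but not the kind of test. CPM and RPKM were computed from the counts and TMM-scaled library sizes. A floor of 3 counts equals 0.136 to 0.159 CPM and covers counting error only. Within groups, chi-square per degree of freedom of library pairs was 8.76 to 42.3, so no library was a repeat of another. The fits were tested on simulated data.

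The members and lists were chosen with earlier results of these data known. Genes named beside the 10 members were, per list, up to 4 with the largest change at an adjusted p under 0.05, partners or paralogues of members, and the gene nearest in pattern. Genes named because they did not pass, Vldlr and Shmt2, and the CREBH target and marker genes with values, were named after their values were seen. Syvn1, Aars and Gars were named for a motif before their start site. The alternatives were DESeq2 1.42.0, limma-voom (limma 3.58.1), no TMM scaling, the likelihood ratio test, no filter or a stricter filter of 1 CPM in all libraries, the replicate number as a block, p under 0.01, each library left out, a pseudocount of 1 CPM in the ratios, and removal of the trend with exon length.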

Additional observations from a re-analysis of the deposited data

How the results depend on the processing

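With 3 mice per group and few libraries behind each call, the member counts moved easily. With the replicate number as a block, 0 members were called higher (Xbp1 0.45, adjusted p = 0.0572, Atf6b 0.54, adjusted p = 0.0503, by edgeR), and over all genes 370 were higher and 164 lower. The numbers were not taken to pair the mice, since deviations of same-numbered libraries correlated at -0.048, -0.23 and -0.21. In the other 7 settings that kept all libraries, Xbp1 and Atf6b were called. With each library left out in turn, 0 to 4 members were higher, 4 without FGF19 replicate 3, where Eif2ak3 and Atf6 were added. In that fit, 1015 genes were called higher and 926 lower over all genes, against 573 and 357 with all libraries. Over the fits with a library left out, log2 fold changes were -0.34 to 0.067 for Ern1, 0.39 to 0.48 for Xbp1, 0.15 to 0.51 for Eif2ak3, -0.33 to 0.16 for Trib3, -0.078 to 0.11 for Ppp1r15a, 0.18 to 0.41 for Atf6 and 0.48 to 0.61 for Atf6b. Trib3 changed sign to 0.076 with limma-voom and to 0.044 under the block. The leave-one-out ranges of the ratios Atf4/Atf6 and Eif2ak3/Atf6 crossed 0, at -0.23 to 0.074 and -0.095 to 0.13.

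Over the lists, leaving out a library gave 8 to 14 higher IRE1 and XBP1 target genes, 1 to 7 higher and 0 to 2 lower PERK and ATF4 target genes, 0 to 1 higher genes in the processing and OASIS list and in the CHOP list, 0 to 1 lower CREBH target genes, and 236 to 1015 higher and 91 to 926 lower genes in all. The block left 1 lower PERK and ATF4 target gene. The processing and OASIS list had 1 higher gene by the likelihood ratio test, at p under 0.01 and with the length trend removed, the CHOP list 1 higher gene by the likelihood ratio test, and the CREBH targets 1 lower gene with DESeq2, at p under 0.01 and with the length trend removed. Lower genes in all numbered 579 by the likelihood ratio test, 626 at p under 0.01 and 551 with the length trend removed. The 14 genes named for the largest changes in their lists kept direction and call in 177 refits and direction alone in 15, with 0 reversals (Vldlr, Shmt2 and Hspa5 were not among them), and the cause of these shifts was not tested. Scaling moved the median of all genes by under 0.1 on the log2 scale. Genes near the floor, such as Ern2, were not measurable at this depth.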
